A study of Mus musculus with 4 samples.

Results

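Seh1l, the mouse gene of the nucleoporin Seh1, and the 9 genes that encode the rest of the Y complex with its chromatin anchor were followed across the study. The 10 genes (Seh1l, Nup107, Nup160, Nup133, Nup85, Nup43, Nup37, Nup98, Sec13 and Ahctf1) were taken by symbol, as the members of a known complex, at a time when earlier results of these data were known. All 10 were among the 17621 genes of the deposited tables, and all 10 averaged 1 CPM (counts scaled to library size) or more, as did 12976 genes in all.

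The Y complex, also called the Nup107-Nup160 complex, is the scaffold unit of the nuclear pore and forms its outer rings on the nuclear and cytoplasmic faces. Its stem is built from Nup96, Sec13, Nup107 and Nup133, one short arm from Nup85, Seh1 and Nup43, and the other from Nup160 and Nup37. Nup96 is not encoded by a gene of its own: it is cut from a precursor encoded by Nup98, whose other product is the nucleoporin Nup98. Ahctf1 encodes ELYS, which brings the complex to chromatin when the nuclear envelope reforms after mitosis, and part of the complex sits at kinetochores during mitosis. Seh1 and Sec13 also belong to GATOR2, a regulator of the kinase complex mTORC1, and Sec13 is in addition a subunit of the COPII coat of secretory vesicles. In mice, Seh1 has been studied in the formation of oligodendrocytes.

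RNA came from primary neural stem cells of newborn mouse cortex (postnatal day 0). Depleted cells (iKO) had the genotype cmv-cre-ert with seh1 f/f, that is floxed Seh1 alleles and a Cre recombinase fused to an estrogen receptor domain under the cmv promoter. Control cells (Ctrl) had the genotype Seh1 f/f, so the floxed alleles are shared by all groups and the recombinase is present in iKO alone. Each genotype was sampled after withdrawal of EGF and bFGF (day 3) and in growth medium with both factors (day 0). The sources used here do not give an inducer treatment, the number of animals or the floxed exons. There was 1 library per group, so the differences below rest on single libraries and carry no p-value.

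The 4 libraries held between 19611747 and 21040586 counts. Levels are given in CPM after TMM scaling. The 10 genes are ranked against each other only in FPKM, which divides by transcript length. Sums of marker levels are in CPM and are not divided by length, so longer transcripts weigh more in them. Intervals in brackets are exact 95% intervals of the counts and cover counting error only. A gene was counted as lower or higher when the log2 ratio of CPM + 1 was at least 1 in size. The label of the cells was checked on 10 neural stem and progenitor markers, all measured in each library. Their summed level was 5217 CPM in iKO against 5631 CPM in Ctrl at day 3, and 6274 CPM in iKO against 6152 CPM in Ctrl at day 0. Vim and Fabp7 together made up most of each sum. At day 0 Vim had 3418 CPM in iKO against 2924 CPM in Ctrl, while 7 of the 10 log2 ratios lay below 0 and 3 above. At day 3, 1 of the 10 was at least 2-fold lower in iKO, the Notch target Hes5 (15.1 CPM against 111 CPM in Ctrl). Prom1 was the 1 higher in iKO, with 10.2 CPM against 3.18 CPM in Ctrl. At day 0, Hes5 was the 1 marker at least 2-fold lower in iKO, with 3.95 CPM against 9.05 CPM in Ctrl. Between genotypes, the shares of all genes were 4.76% lower and 6.27% higher in iKO at day 3, and 0.331% lower at day 0. Between days, 1 marker was at least 2-fold lower at day 3 in iKO and 2 were higher, against 11.4% and 11.2% of all genes. In Ctrl 3 were lower and 2 higher, against 15.1% and 14.6%. Nes was lower at day 3 in both, with 165 CPM against 663 CPM at day 0 in iKO, and 235 CPM against 849 CPM in Ctrl. Astrocyte markers, several of which neural stem cells also express, summed to 22181 CPM in iKO against 16453 CPM in Ctrl at day 3, and to 3169 CPM in iKO against 2009 CPM in Ctrl at day 0. Most of the day 3 gap came from Apoe, with 12096 CPM in iKO against 6765 CPM in Ctrl. Of the 8 astrocyte markers, 6 had a log2 ratio of iKO to Ctrl above 0 at day 3. The other 2, Aldh1l1 and Aldoc, lay below 0. At day 0 all 8 lay above 0. At day 3, 7 of these 8 markers in iKO and all 8 in Ctrl were at least 2-fold higher than at day 0, against 11.2% and 14.6% of all genes. The day 3 libraries were thus rich in astrocyte markers in both genotypes. Neuron markers summed to 931 CPM in iKO against 1733 CPM in Ctrl at day 3, and to 877 CPM in iKO against 938 CPM in Ctrl at day 0. Map2 made up most of each sum, with 871 CPM in iKO against 1459 CPM in Ctrl at day 3. At day 0 Map2 had 791 CPM in iKO against 879 CPM in Ctrl. It was then the 1 neuron marker of 8 with a log2 ratio below 0, and the other 7 lay above 0. The widest gap among neuron markers at day 3 was that of Dcx, a microtubule protein of young neurons, with 15.4 CPM in iKO against 147 CPM in Ctrl. Microglial markers summed to at most 9.08 CPM, endothelial markers to at most 4.03 CPM and fibroblast and mural markers to at most 20.4 CPM in any library. Oligodendrocyte lineage markers summed to 151 CPM in iKO against 1072 CPM in Ctrl at day 3, and to 175 CPM in iKO against 242 CPM in Ctrl at day 0. In these bulk samples, fewer cells of a type and less RNA per cell cannot be told apart.

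Seh1l itself was lower in iKO cells at both days, and counts assigned to the gene remained. The floxed exons are not given, so counts of the gene or of its transcript models cannot separate intact from recombined transcript. The share of recombined cells was not tested. Seh1l (gene ID 72124, chromosome 18, 67774876 to 67795487, GRCm38) had 208 counts in iKO against 668 in Ctrl at day 3, and 419 in iKO against 820 in Ctrl at day 0. This gave 11.0 CPM in iKO against 33.2 CPM in Ctrl at day 3, and 19.2 CPM in iKO against 40.3 CPM in Ctrl at day 0. Both iKO libraries lay below both Ctrl libraries, and the day 3 iKO library was the lowest of the 4. The gene was 3.01-fold lower in iKO at day 3 (2.58 to 3.54) and 2.10-fold lower at day 0 (1.86 to 2.37). At day 3, 265 of the 12976 genes had a log2 ratio as low or lower, and at day 0 only 31 genes did, Seh1l included in each count. The authors' deposited table for day 3 gives Seh1l a log2 ratio of -1.60 of iKO to Ctrl with an FDR of 2.65e-55, from the same 2 libraries and so with no measure of spread between cultures. That table lists 1774 genes, against 17621 in the deposited count tables, and no other member of the complex. It comes with no method, so the rule for entering it is unknown. With a list of that size and so few members, the absence of the others carries little information and does not by itself single out Seh1l.

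The difference in Seh1l between genotypes was larger at day 3 than at day 0. The log2 of the CPM ratio of iKO to Ctrl at day 3, minus that at day 0, was -0.52 (-0.80 to -0.24, a normal approximation for counting error). In iKO cells Seh1l was 1.74-fold lower at day 3 than at day 0 (1.47 to 2.07), and in Ctrl cells 1.21-fold lower (1.09 to 1.35). These comparisons of days share libraries with the comparisons of genotypes and add no independent evidence.

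**Figure D1:**
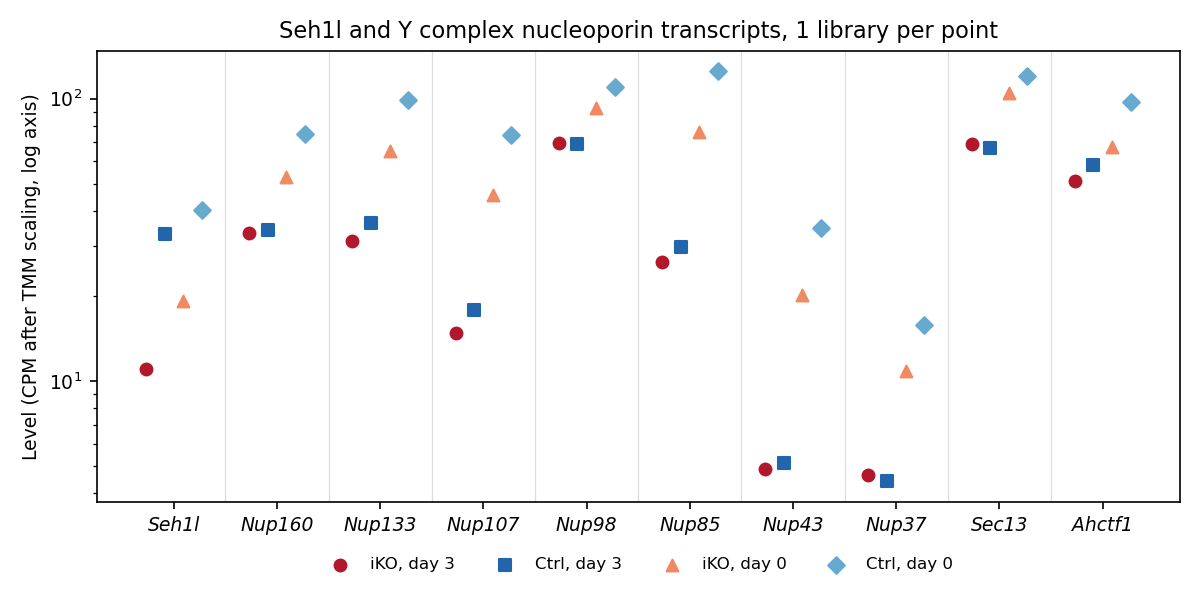
Level of each gene in CPM after TMM scaling (log axis) in the 4 libraries, 1 point per library, with no error bars because each group is 1 library. The circle of iKO at day 3 is the lowest point for 7 of the 10 genes, the square of Ctrl at day 3 is slightly lower for Nup98, Nup37 and Sec13, and Seh1l alone has its day 0 iKO triangle below its day 3 Ctrl square.

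Read by transcript model, the 2 annotated coding models of Seh1l were lower in iKO and a minor predicted model was not. The longest, NM_001039088.1, has 9 exons and 3542 bases with a coding length of 1080 bases in GENCODE M21, and held most counts in every library. It had 173 counts in iKO against 600 in Ctrl at day 3, and 371 in iKO against 702 in Ctrl at day 0. It was 3.25-fold lower in iKO at day 3 (2.74 to 3.88) and 2.03-fold lower at day 0 (1.79 to 2.31). NM_028112.2 ends in a different, shorter last exon (730 bases, against 2338 bases in the longest model) and has 8 exons. It had 21 counts in iKO against 56 in Ctrl at day 3, and 31 in iKO against 103 in Ctrl at day 0, or 2.50-fold (1.49 to 4.35) and 3.56-fold (2.36 to 5.51) lower in iKO. The predicted model XM_006526278.1 had 14 counts in iKO against 12 in Ctrl at day 3, and 17 in iKO against 14 in Ctrl at day 0. Its ratios of iKO to Ctrl, 1.24 at day 3 (0.53 to 2.94) and 1.13 at day 0 (0.53 to 2.48), had intervals that include both no difference and a near 2-fold one in either direction. The shares of Seh1l counts on this model were 6.73% in iKO (3.73 to 11.0) against 1.80% in Ctrl (0.932 to 3.12) at day 3, and 4.06% in iKO (2.38 to 6.42) against 1.71% in Ctrl (0.937 to 2.85) at day 0, by the Clopper-Pearson method. Counts per model are estimates that divide reads shared between models, so a model with so few counts is uncertain. The annotation places an antisense gene, 4930549G23Rik, across Seh1l, and 126 of the 4121 exonic bases of Seh1l are shared with it. Ahctf1 shares 305 of its 15116 exonic bases with a gene on the opposite strand and 155 with Kif28 on its own strand. Nup133 shares up to 461 of its 7029 exonic bases with a gene on the opposite strand. The sources used here do not say whether counting used strand, which in any case would not separate Ahctf1 from Kif28 in the bases they share.

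**Figure D2:**
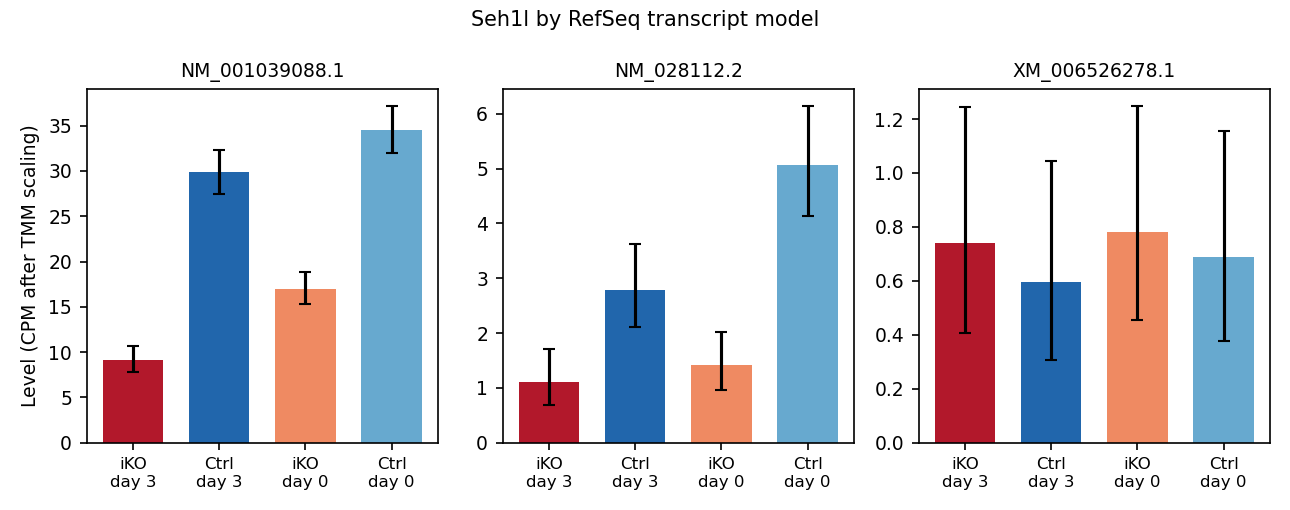
Level of each Seh1l transcript model in CPM after TMM scaling (bars start at 0, 1 library per bar), with exact 95% Poisson intervals of the counts as error bars; the axes differ between panels. NM_001039088.1 and NM_028112.2 are lower in iKO than in Ctrl at both days, and the intervals of XM_006526278.1, with 12 to 17 counts, overlap in all 4 libraries.

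The other 9 genes were lower in iKO than in Ctrl in growth medium, though none by 2-fold. Of the 10 genes, 1 was at least 2-fold lower at day 0, Seh1l, against a background of 0.331% of all genes, and all 10 had a log2 ratio below 0, against 56.5% of all genes. This call of Seh1l was lost, with 0 of 10 genes past 2-fold, when library totals (log2 ratio -0.91), deposited FPKM (-0.88) or a pseudocount of 5 CPM (-0.90) was used. All 10 counting intervals lay below 1, as did those of 39.5% of all genes. The median log2 ratio was -0.56 over the 10 genes and -0.52 over the 9 without Seh1l, against -0.06 over all genes.

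After Seh1l, the widest gaps at day 0 were those of Nup43 and Nup85 in the short arm of Seh1 and of Nup107 in the stem, and their intervals overlap. Nup43, a beta propeller protein and neighbour of Seh1 in this arm, had 20.1 CPM in iKO against 34.7 CPM in Ctrl, 1.73-fold lower (1.53 to 1.95). Nup85, which binds Seh1 directly, had 76.2 CPM in iKO against 125 CPM in Ctrl, 1.64-fold lower (1.54 to 1.75). Both genes of the other short arm had smaller ratios, though the wide interval of Nup37 overlaps those above. Nup160, a large scaffold subunit, had 52.9 CPM in iKO against 74.7 CPM in Ctrl, 1.41-fold lower (1.31 to 1.53). Nup37, the propeller protein that binds Nup160, had 10.8 CPM in iKO against 15.7 CPM in Ctrl, 1.45-fold lower (1.22 to 1.73).

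The stem was split at day 0. Nup107, which links the stem to its tip, had 45.6 CPM in iKO against 74.6 CPM in Ctrl, 1.64-fold lower (1.51 to 1.78). Nup133, the tip of the stem, had 65.0 CPM in iKO against 99.1 CPM in Ctrl, 1.52-fold lower (1.42 to 1.63). Nup98 and Sec13 stood closest to Ctrl. Nup98 had 92.6 CPM in iKO against 110 CPM in Ctrl, 1.19-fold lower (1.12 to 1.26). Sec13 had 105 CPM in iKO against 120.01 CPM in Ctrl, 1.15-fold lower (1.08 to 1.22). Ahctf1, the chromatin anchor, had 67.4 CPM in iKO against 97.0 CPM in Ctrl, 1.44-fold lower (1.35 to 1.54).

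At day 3 Seh1l stood apart from the rest of the complex. It was the 1 gene of 10 at least 2-fold lower, against a background of 4.76% of all genes, and the other 9 had log2 ratios between -0.25 and 0.06. In all, 7 of 10 log2 ratios lay below 0, against 51.3% of all genes, and 4 of 10 counting intervals lay below 1, those of Seh1l, Nup107, Nup133 and Ahctf1, against 35.6% of all genes. The median over the 9 genes without Seh1l was -0.06, against -0.01 over all genes. Nup107 had 14.8 CPM in iKO against 17.8 CPM in Ctrl, the widest gap of the 9, at 1.20-fold lower (1.02 to 1.41). Nup133 had 31.3 CPM in iKO against 36.2 CPM in Ctrl, and Ahctf1 had 51.1 CPM in iKO against 58.3 CPM in Ctrl. For 6 genes the interval included 1. Among these, the scaffold gene Nup160 had 33.3 CPM in iKO against 34.2 CPM in Ctrl. Nup85 had 26.5 CPM in iKO against 29.8 CPM in Ctrl. Nup43 had 4.88 CPM in iKO against 5.12 CPM in Ctrl, with a wide interval of 0.71 to 1.27 for the ratio of iKO to Ctrl. At these counts the short arm propellers Nup43 and Nup37 cannot show a small difference. Nup37 had 4.66 CPM in iKO against 4.43 CPM in Ctrl, on 88 counts against 89 counts. The genes Nup98 and Sec13 also had ratios close to 1, with narrow intervals. Nup98 had 69.6 CPM in iKO against 68.8 CPM in Ctrl, and Sec13 had 69.1 CPM in iKO against 66.8 CPM in Ctrl.

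**Figure D3:**
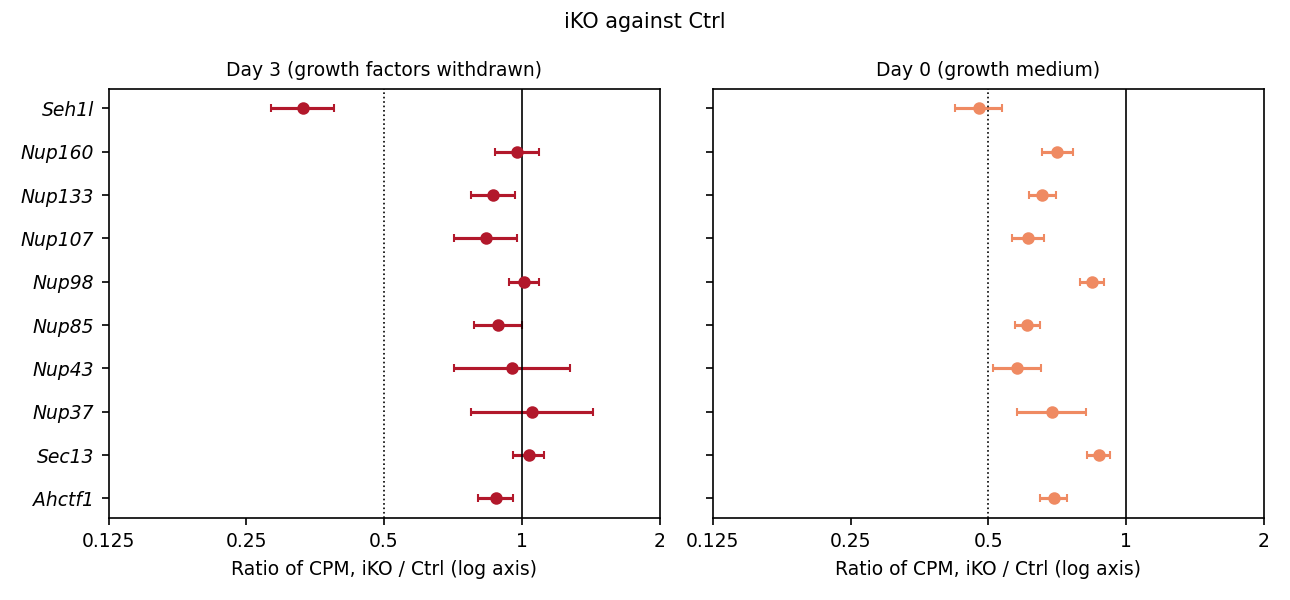
Ratio of CPM of iKO to Ctrl for the 10 genes at day 3 (left) and day 0 (right) on a log axis; points are ratios of 2 single libraries and bars are exact 95% intervals of the counts. At day 3 Seh1l is the one gene left of the dotted 2-fold line, at 0.33, while at day 0 all 10 points lie left of 1.

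The genotype difference moved in opposite directions between the days for Seh1l and for the other 9 genes. For Seh1l the ratio of iKO to Ctrl was lower at day 3 than at day 0. For each of the other 9 it was higher at day 3, by between 0.25 for Sec13 and 0.72 for Nup43 on the log2 scale. The intervals were 0.11 to 0.39 for Sec13 and 0.28 to 1.16 for Nup43, and all 9 lay above 0 by counting error, as did those of 34.0% of all genes. The interval of Seh1l lay below 0, as did those of 25.2% of all genes. All 9 differences stayed above 0 under the other scalings and pseudocounts and with deposited FPKM. However, the smallest was 0.04 with library totals and 0.01 with deposited FPKM. The other minimum levels could not alter these differences, since all 10 genes averaged more than 5 CPM. No interaction between genotype and day was tested, since each cell of the design holds 1 library.

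Transcript levels of the complex were lower after growth factor withdrawal in both genotypes. At day 3, 5 of 10 genes in iKO cells were at least 2-fold lower than at day 0 (Nup107, Nup133, Nup85, Nup43 and Nup37), against a background of 11.4% of all genes. In Ctrl cells 6 of 10 were, the same 5 and Nup160, against a background of 15.1%. All 10 log2 ratios lay below 0 in each genotype, against 50.4% of all genes in iKO and 51.0% in Ctrl. All 10 counting intervals also lay below 1 in each genotype, against 40.7% of all genes in iKO and 43.2% in Ctrl. The median log2 ratio was -0.89 in iKO and -1.27 in Ctrl, against -0.01 and -0.02 over all genes. No member was at least 2-fold higher in any comparison, where the background was 11.2% for the days in iKO and 14.6% in Ctrl, and 6.27% at day 3 and 2.67% at day 0 for iKO against Ctrl. With a pseudocount of 5 CPM, 3 genes passed the 2-fold threshold in iKO.

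The size of this difference followed no single module of the complex. Nup43 had the largest, 4.12-fold lower at day 3 in iKO (3.28 to 5.22) and 6.78-fold lower in Ctrl (5.50 to 8.42). Nup107 was 3.07-fold lower in iKO (2.69 to 3.52) and 4.19-fold lower in Ctrl (3.73 to 4.71). Nup85 was 2.87-fold lower in iKO (2.60 to 3.18) and 4.19-fold lower in Ctrl (3.83 to 4.59). Behind these 3 genes came the Nup160 partner Nup37 and the stem tip gene Nup133. Nup37 was 2.32-fold lower in iKO (1.81 to 3.0) and 3.56-fold lower in Ctrl (2.80 to 4.55). Nup133 was 2.08-fold lower in iKO (1.88 to 2.29) and 2.74-fold lower in Ctrl (2.51 to 2.98). These 5 genes come from both arms and from the outer stem. Nup160 was 1.59-fold lower in iKO (1.44 to 1.75) and 2.19-fold lower in Ctrl (2.0 to 2.4).

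Sec13, Ahctf1 and Nup98 differed less between the days, by 1.51-fold, 1.32-fold and 1.33-fold in iKO and by 1.80-fold, 1.66-fold and 1.59-fold in Ctrl, all lower at day 3. In Ctrl cells Seh1l had the smallest difference of the 10 genes, 1.21-fold, whereas in iKO cells Nup160, Sec13, Nup98 and Ahctf1 had smaller ones than Seh1l.

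**Figure D4:**
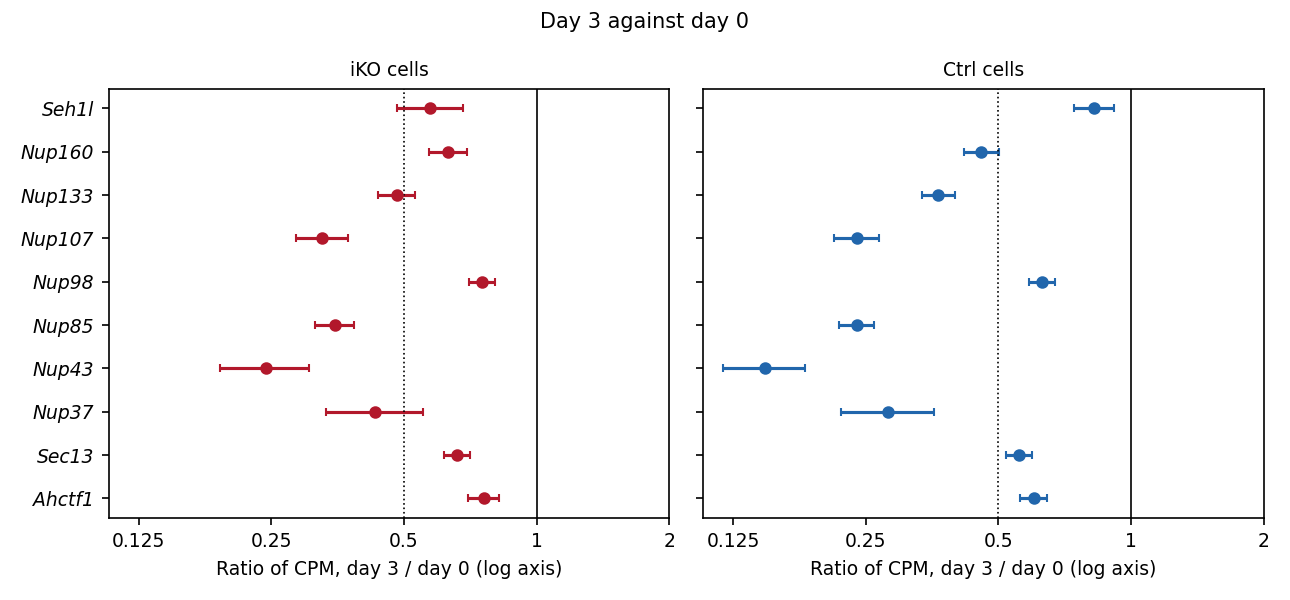
Ratio of CPM of day 3 to day 0 for the 10 genes in iKO cells (left) and Ctrl cells (right) on a log axis; points are ratios of 2 single libraries and bars are exact 95% intervals of the counts. Nup43 lies furthest left in both panels (0.24 in iKO and 0.15 in Ctrl), and Seh1l lies nearest to 1 in Ctrl, at 0.82.

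Because 5 genes were lower together at day 3 in both genotypes, their promoter windows were read for 6 motifs of broadly used or cell cycle factors. RefSeq windows of 300 bases (250 before the start and 50 after, GRCm38.p6) were matched for 7 of the 10 genes, namely Nup107, Nup160, Nup133, Nup37, Nup98, Sec13 and Ahctf1, with a second start for Nup37 and for Nup98. Shown are 2 genes from those that were lower together, and Sec13 as one that differed less. All are written 5′ to 3′ on the strand of the gene, with each match in capitals.
Nup37 (chr10:88146742-88147041, plus strand): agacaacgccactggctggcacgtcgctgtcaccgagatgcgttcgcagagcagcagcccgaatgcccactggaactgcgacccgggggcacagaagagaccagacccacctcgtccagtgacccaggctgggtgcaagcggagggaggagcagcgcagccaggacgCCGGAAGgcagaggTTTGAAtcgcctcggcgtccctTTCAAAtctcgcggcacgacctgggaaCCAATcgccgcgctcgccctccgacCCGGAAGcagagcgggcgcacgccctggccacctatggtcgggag
Nup107 (chr10:117792656-117792955, minus strand): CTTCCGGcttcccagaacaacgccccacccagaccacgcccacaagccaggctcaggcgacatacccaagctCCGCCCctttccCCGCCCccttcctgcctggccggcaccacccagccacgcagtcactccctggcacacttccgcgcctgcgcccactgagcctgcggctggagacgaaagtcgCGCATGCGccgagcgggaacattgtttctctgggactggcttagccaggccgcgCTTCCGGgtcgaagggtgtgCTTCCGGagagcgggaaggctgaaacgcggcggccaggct
Sec13 (chr6:113740632-113740931, minus strand): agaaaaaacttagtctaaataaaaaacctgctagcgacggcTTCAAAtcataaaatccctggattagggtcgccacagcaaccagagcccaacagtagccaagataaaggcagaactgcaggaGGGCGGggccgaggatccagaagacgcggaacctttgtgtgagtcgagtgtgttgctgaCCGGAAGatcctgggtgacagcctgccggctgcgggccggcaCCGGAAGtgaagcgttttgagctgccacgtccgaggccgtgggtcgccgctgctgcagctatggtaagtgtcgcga
The motifs, searched on both strands, were CHR (TTTGAA or TTCGAA), the CCAAT box (CCAAT), an ETS site (CCGGAAG), NRF1 (CGCATGCG), Sp1 (GGGCGG) and E2F (TTTCCCGC, TTTGGCGC or TTTCGCGC), and no matches overlapped. The 7 genes have 9 windows, and both windows of Nup37 overlap and hold the same matches. The CHR letters were in 4 of 9 windows (those of Nup37, 1 of Nup98 and that of Sec13), against 19.2% of all 32851 windows. The CCAAT letters were in 3 of 9 windows (those of Nup37 and 1 of Nup98), against 37.4%. ETS letters were in 4 of 9 windows (Nup107, Sec13 and those of Nup37), against 8.86%, and NRF1 letters in 1 of 9 (Nup107), against 1.87%. Sp1 letters were in 5 of 9 windows (Nup107, Nup133, Sec13 and those of Nup98), against 35.7%, and the E2F letters in 0 of 9, against 1.84%. The windows of Nup160 and Ahctf1 held no match to any of the 6. Of the genes that were lower together, Nup107, Nup133 and Nup37 have a window, and no motif was in all 3. The ETS letters were in Nup107 and Nup37, and the Sp1 letters in Nup107 and Nup133. A match describes letters in a window and is not a bound site.

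Per transcript length, Sec13 was the most abundant of the 10 and Seh1l changed its place. Sec13 stood first in every library, at 51.8 FPKM in iKO against 53.0 FPKM in Ctrl at day 3, and 85.9 FPKM in iKO against 90.2 FPKM in Ctrl at day 0. Nup85 stood second in every library, at 11.9 FPKM in iKO against 14.2 FPKM in Ctrl at day 3, and 37.6 FPKM in iKO against 56.7 FPKM in Ctrl at day 0. Seh1l was the lowest of the 10 in both iKO libraries, at 3.44 FPKM at day 3 and 6.29 FPKM at day 0. In the Ctrl libraries it was at 10.45 FPKM at day 3, place 4 of 10, and at 12.5 FPKM at day 0, place 7 of 10.

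Many neighbours in that order had counting intervals that met, which by itself does not show that their levels were equal. At day 3 in iKO the 7 genes from Ahctf1 (5.64 FPKM) down to Seh1l formed a chain in which each interval met the next, so the place of Seh1l below Nup37 (3.58 FPKM) and Nup43 (3.69 FPKM) is not resolved there. At day 0 in iKO the interval of Seh1l (5.70 to 6.92) did not meet that of Ahctf1 next above it (7.85 to 8.70). At day 3 in Ctrl the interval of Seh1l met that of Nup98 above it and not that of Ahctf1 below it. At day 0 in Ctrl the last 4 genes, Seh1l, Nup37, Nup160 and Ahctf1, formed such a chain between 12.5 and 10.8 FPKM.

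Set against the median of the other 9 genes in the same library, Seh1l was at 0.652 of it in iKO against 1.65 in Ctrl at day 3, and at 0.421 in iKO against 0.763 in Ctrl at day 0, all in FPKM. Against Sec13, its partner in GATOR2, Seh1l stood at 6.64% in iKO against 19.7% in Ctrl at day 3, and at 7.32% in iKO against 13.8% in Ctrl at day 0. Within each genotype the ratio to the other 9 genes was higher at day 3 than at day 0.

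Most counts of Nup98 lay on models long enough to code for the whole precursor. NM_001287164.1 has 33 exons and a coding length of 5448 bases in GENCODE M21, and 3 predicted models have nearly the same length as judged by their counts per FPKM. These 4 long models held 94.4% of Nup98 counts in iKO (93.1 to 95.6) against 89.1% in Ctrl (87.3 to 90.7) at day 3, and 96.1% in iKO (95.1 to 96.9) against 94.7% in Ctrl (93.7 to 95.6) at day 0. The other 3 models, with coding lengths of 2901 to 3510 bases, held 73 counts in iKO against 151 in Ctrl at day 3, and 79 in iKO against 119 in Ctrl at day 0. Most counts of Nup98 thus came from models of the length of the Nup98-Nup96 precursor. Counts moved between models of nearly equal length from library to library (NM_001287164.1 had 104 counts in Ctrl at day 3 and 1139 in Ctrl at day 0), so single long models are not compared.

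The differences between days and, at day 0, between genotypes moved with those of other nucleoporins and of cell cycle genes. Of 19 other nucleoporins measured, 0 were at least 2-fold lower and 1 was higher in iKO at day 3 (median -0.02), and 0 passed in either direction at day 0, when 18 lay below 0 (median -0.38). The one higher at day 3 was Aaas, which encodes the nucleoporin ALADIN, with 41.3 CPM in iKO against 17.9 CPM in Ctrl. At day 0 the widest gap was that of Nup210, a membrane nucleoporin, with 134 CPM in iKO against 241 CPM in Ctrl. Between days, 6 of the 19 were at least 2-fold lower at day 3 in iKO and 12 in Ctrl, against 11.4% and 15.1% of all genes.

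Of 14 cell cycle genes, 0 passed at day 3 between genotypes (median -0.01, 7 below 0), and at day 0 all 14 lay below 0 in iKO with 0 at 2-fold (median -0.78). Their summed level was 360 CPM in iKO against 372 CPM in Ctrl at day 3, and 3362 CPM in iKO against 5830 CPM in Ctrl at day 0. Of 20 kinetochore and chromosomal passenger genes, which act where part of the Y complex sits in mitosis, 0 passed at either day between genotypes, with medians of -0.14 at day 3 and -0.73 at day 0, when all 20 lay below 0. Between days all 14 cell cycle genes passed the 2-fold threshold, lower at day 3, in both genotypes (medians -3.54 in iKO and -4.06 in Ctrl), as were 17 of 20 kinetochore genes in iKO and 18 of 20 in Ctrl. The part of cell cycle genes, or of the share of dividing cells, in the levels of the Y complex was not tested. All 7 oligodendrocyte lineage markers with at least 1 CPM were at least 2-fold lower in iKO at day 3 and 4 were at day 0, against 4.76% and 0.331% of all genes. Of 8 neuron markers, 4 were at least 2-fold lower in iKO at day 3 and 2 were higher at day 0. Of 8 astrocyte markers 0 passed at day 3 and 3 were higher in iKO at day 0. The shares of all genes higher in iKO were 6.27% at day 3 and 2.67% at day 0. The part of any of these cell type markers in the Seh1l difference was not tested. Mog was the 1 oligodendrocyte marker under 1 CPM.

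The partners of Seh1 and Sec13 outside the pore showed no 2-fold difference. Of the 3 GATOR2 partners measured, 0 passed in any of the 4 comparisons, and the medians for iKO against Ctrl were -0.04 at day 3 and -0.28 at day 0. Mios, the GATOR2 subunit that contacts Seh1, had 23.3 CPM in iKO against 34.1 CPM in Ctrl at day 3, 1.46-fold lower (1.29 to 1.65), and 27.3 CPM in iKO against 37.5 CPM in Ctrl at day 0, 1.37-fold lower (1.23 to 1.53). Wdr24 had 24.1 CPM in iKO against 24.8 CPM in Ctrl at day 3, and 20.2 CPM in iKO against 21.1 CPM in Ctrl at day 0. Wdr59 had 27.9 CPM in iKO against 26.4 CPM in Ctrl at day 3, and 19.8 CPM in iKO against 24.2 CPM in Ctrl at day 0. Of 10 COPII coat genes, 0 passed in any comparison, with medians of -0.01 at day 3 and 0.05 at day 0 between genotypes. Sec24d, a cargo adaptor of that coat, had the widest gap, with 38.9 CPM in iKO against 23.3 CPM in Ctrl at day 3. Between genotypes, at most 4.76% of all genes were at least 2-fold lower and 6.27% higher. Thus 0 of 3 and 0 of 10 do not set these lists apart from other genes there.

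**Figure D5:**
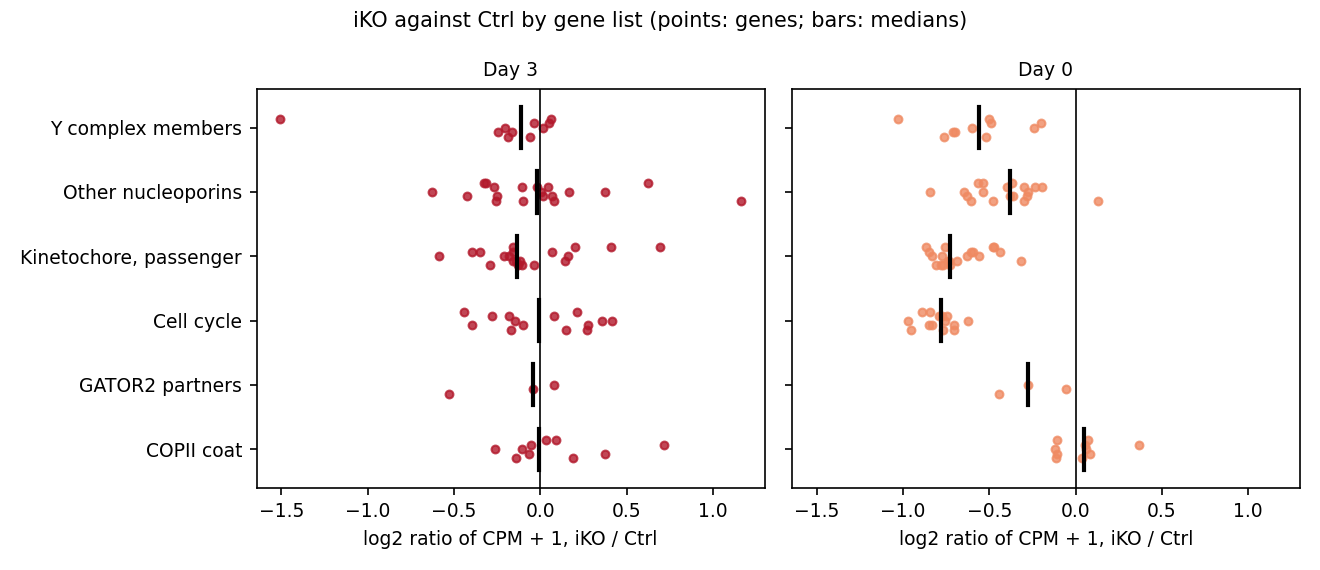
Log2 ratio of CPM + 1 of iKO to Ctrl at day 3 (left) and day 0 (right) by gene list; each point is a gene averaging 1 CPM or more and black bars are medians. At day 0 the Y complex, other nucleoporins, kinetochore and cell cycle lists have medians of -0.56, -0.38, -0.73 and -0.78, and at day 3 their medians lie between -0.14 and -0.01, with Seh1l alone at -1.51.

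The 5 genes whose levels ran most like Seh1l over the 4 libraries included no other member of the complex. Likeness was the root mean square difference of log2(CPM + 1) values after each gene was centred on its own mean, over 11211 named genes averaging 5 CPM or more. The 5 nearest were Lss (0.03), Pcbp4 (0.10), Mpped2 (0.15), Lrp8 (0.17) and Mvd (0.17). Lss had 74.4 CPM in iKO against 205 CPM in Ctrl at day 3, and 128 CPM in iKO against 259 CPM in Ctrl at day 0. The nearest member was Ahctf1, at place 921 with a difference of 0.50, and the farthest was Nup43, at place 8641 with 0.99. Since only 9 of the 11211 genes are such members, their absence from the 5 nearest carries little information. With 4 libraries, such likeness is a description of these libraries alone.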

How the data were processed

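Per the labels' protocols, total RNA was made into libraries with a BGI kit, 1 library per group. HISAT, Bowtie2, StringTie and the mm10 build are named in the submitters' processing notes, without versions. The sources used here do not give the counter, annotation release, strandedness or filters. The authors deposited an expected count, an estimate with decimals, for each of 55122 RefSeq transcripts. The deposited expression value has no unit in its header and was taken as FPKM, since its ratio to the count per base was nearly constant. The authors' deposited day 3 table gives a log2 ratio and an FDR (an adjusted p-value), per the file headers, with no method. The day 0 table breaks off inside a number and may be incomplete, so it was not used, and nothing is read from which genes it holds.

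Expected counts were summed per gene ID and rounded, and scaled with TMM (edgeR 4.0.16, R 4.3.3). Symbols came from RefSeq (GRCm38.p6) for 17498 IDs and from the authors' table for 12. Genes averaging 1 CPM or more in the 4 libraries were set side by side as log2((CPM + 1)/(CPM + 1)), which understates low genes. Printed folds are CPM ratios without the pseudocount, with exact 95% conditional intervals (scipy 1.17.1). No test between conditions was run, and a model without interaction (1 residual degree of freedom) was not fitted. The ratio code was tested on simulated data. Depth was 19611747 to 21040586 counts. Reads are not independent molecules.

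Members and lists were chosen with earlier results of these data known. Of each list the text names at most the gene with the largest ratio, plus those that follow. All GATOR2 partners, Prom1, Mog, Vim, Fabp7, Nes, Apoe, Aldh1l1, Aldoc and Map2 were named after their values were seen. Alternatives were other pseudocounts (0.1 and 5 CPM), DESeq2 1.42.0 size factors, library totals, deposited FPKM, scaling without ribosomal protein and histone genes, and other minimum levels. Of 22 other nucleoporin symbols 19 were measured, and the rest were not analysed here.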

Additional observations from a re-analysis of the deposited data

Results flagged for a closer look

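For 3 genes the ratio of iKO to Ctrl had opposite signs at the 2 days, and the difference was not tested with 1 library per group. The log2 ratio was 0.062 at day 3 and -0.50 at day 0 for Nup37, 0.017 at day 3 and -0.24 at day 0 for Nup98, and 0.048 at day 3 and -0.20 at day 0 for Sec13. The day 3 intervals of all 3 included no difference, and their day 3 sign changed between settings (-0.01 to 0.07, -0.11 to 0.02 and -0.03 to 0.05).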

How the results depend on the processing

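Under the planned settings, 70 recomputed values stayed within counting error or within 1.5 times the count, and 10 did not. These values were the Seh1l log2 ratios, the median log2 ratios of the 10 genes and the counts of genes at least 2-fold lower. No log2 value among them changed sign. The counts under other minimum levels are among the 70 and could not change, since all 10 genes averaged more than 5 CPM. With a pseudocount of 5 CPM the Seh1l log2 ratio at day 3 was -1.25 in place of -1.51, and 3 genes in place of 5 were at least 2-fold lower at day 3 than at day 0 in iKO, since a larger pseudocount shrinks ratios. At day 0, Seh1l was the 1 gene past the 2-fold threshold, and 0 genes passed with library totals, deposited FPKM or a pseudocount of 5 CPM; its log2 ratio there ranged from -1.06 to -0.88. Library totals moved the median of all genes for iKO against Ctrl at day 0 to 0.06 in place of -0.06, and for day 3 against day 0 in iKO to -0.13 in place of -0.01. Deposited FPKM moved these medians to 0.05 and -0.12, and gave 11.4% lower and 7.18% higher genes for day 3 against day 0 in iKO, in place of 11.4% and 11.2%. Shares of Seh1l on its longest model, an alternative chosen after seeing the data, were 71.8% in iKO and 81.8% in Ctrl at day 3, and 80.3% in iKO and 75.1% in Ctrl at day 0 by FPKM, against 83.2%, 89.8%, 88.5% and 85.7% by counts. No paired analysis was possible because each group holds 1 library, so no replicate number pairs libraries and no result comes from a test; a model of genotype with day as a term leaves 1 residual degree of freedom and was not run.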
